A study of Homo sapiens with 18 samples.

Results

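The matrix metalloproteinases and their tissue inhibitors were examined in TPC1, an established human line of papillary thyroid carcinoma, and in D11, a single TPC1 clone made Dicer1 (+/-) with CRISPR/Cas9. The genes were MMP1, MMP2, MMP3, MMP7, MMP9, MMP13, MMP14, TIMP1, TIMP2 and TIMP3, chosen by symbol, so that 10 of the 58302 genes of the deposited table were followed. Cells of each line were left without transfection (NT) or received 5 nM of either a negative control siRNA (NC) or a Dicer1 siRNA (siDicer), and RNA was collected on day 4. This gave 6 groups of 3 libraries, 18 in total, and for most comparisons NT and NC were joined into 1 control group of 6 per line. All 9 D11 libraries carry the heterozygous Dicer1 mutation, the D11 controls included, and results in D11 are those of 1 clone. The labels do not say what a replicate number marks, and the study's methods state in general terms that its experiments were repeated independently. Of 9 thyroid markers, 5 were below 10 normalised reads in every library, TSHR, SLC5A5, NKX2-1 and DIO1 among them. The other 4 were PAX8, a thyroid transcription factor, at 7361 to 14886, FOXE1 at 61 to 214, TG, the gene for thyroglobulin, at 32 to 124 and DUOX2 at 2 to 16.

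Matrix metalloproteinases are zinc endopeptidases that cut collagens, laminins and other proteins around the cell. Most are secreted as inactive proenzymes. MMP1 and MMP13 are collagenases, MMP2 and MMP9 gelatinases that cut denatured and basement membrane collagen, MMP3 a stromelysin, MMP7 matrilysin, and MMP14 a membrane-anchored protease that activates proMMP2. The TIMPs bind the catalytic site of these enzymes and block it, and TIMP2 also takes part in the activation of proMMP2, as the bridge that holds it on MMP14 at the cell surface. Dicer1 cuts precursor hairpins into mature microRNAs (miRNAs), which bind messenger RNAs mostly in the 3′ untranslated region through a short seed at their 5′ end.

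Expression is given as normalised reads, the authors' counts scaled to 20 M aligned reads per library (M for mega). Depth was 11.3 to 23.2 M reads per library, so that 1 read corresponded to between 0.861 and 1.77 normalised reads. For 12 samples the title gives another group than the description. Groups here come from the descriptions, and DICER1 followed them. In TPC1, DICER1 stood at 1397 to 2492 normalised reads in the 6 control libraries and at 255, 395 and 246 in siDicer replicates 1, 2 and 3. In D11 it stood at 655 to 1536 in the control libraries and at 297, 451 and 277 in siDicer. In both lines every siDicer library was below every control library, and replicate 2 kept the most DICER1. Over all genes, replicate 2 of each TPC1 group stood farther from replicates 1 and 3 than those did from each other, in siDicer with a mean chi-square per gene of 37.4 and 29.5 against 4.36. The change was -2.64 on the log2 scale in TPC1 (SE 0.21, adjusted p = 0.000337) and -1.77 in D11 (SE 0.25, adjusted p = 0.000649).

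The genes fell into a strongly expressed and a barely detected set. Per kilobase of exon, which allows levels of different genes to be compared, the mean over the 18 libraries was 2324 normalised reads for MMP14, 2284 for TIMP1, 1690 for TIMP2 and 695 for MMP2. Neighbours in this order overlapped over the libraries, and MMP2, the lowest of them, did not go below 246. The collagenase MMP1 came next at 17.7 per kilobase, and the other 5 genes were at 2.43 or less. In the same libraries the 17 other genes of the family, TIMP4 included, had means of at most 124 per kilobase, that of MMP24, a membrane-type metalloproteinase. Their highest value in a single library, also of MMP24, was 162 per kilobase.

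**Figure D1:**
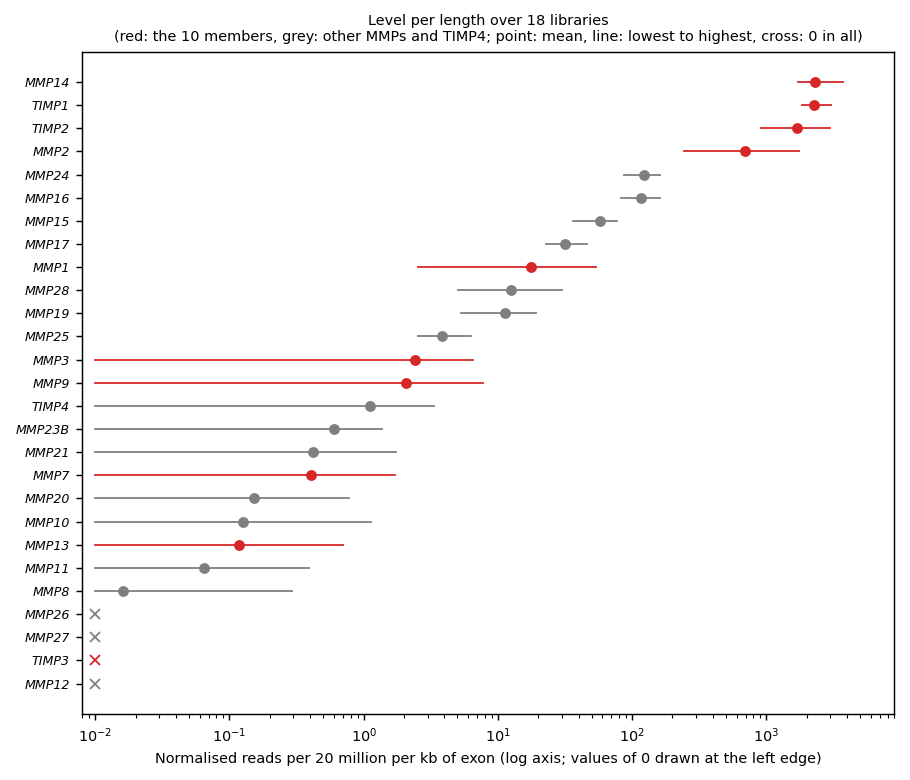
Mean level of each metalloproteinase and TIMP gene over 18 libraries, in normalised reads per 20 M per kilobase of exon on a log axis, with a line from the lowest to the highest library; the 10 genes followed here are in red and the other family genes in grey. MMP14, TIMP1, TIMP2 and MMP2 stand at 695 to 2324, while MMP3, MMP9, MMP7, MMP13 and TIMP3 lie at 2.43 or less.

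MMP2 (ENSG00000087245, GRCh38 chr16:55389700-55506691, plus strand, 13 exons in its canonical transcript) had the largest increase of the 5 genes that could be tested after Dicer1 siRNA in both lines. In TPC1, MMP2 was at 1156, 1671 and 1331 normalised reads in NT, at 1809, 1772 and 1871 in NC and at 6175, 4459 and 7019 in siDicer. D11 NT libraries had 1257, 1157 and 1333, the NC libraries 2592, 1850 and 2316 and the siDicer libraries 8193, 5374 and 7531. Every siDicer library stood above every control library of its line, and within siDicer the lowest value was that of replicate 2 in both lines. For TIMP2, described next, the lowest siDicer value was that of replicate 2 in TPC1 and of replicate 1 in D11. The increase was 3.66-fold in TPC1 (log2 change 1.87, SE 0.18, adjusted p = 0.000503) and 4.15-fold in D11 (log2 change 2.05, SE 0.25, adjusted p = 0.000250). Against NC alone the log2 change was 1.67 in TPC1 and 1.63 in D11, and against NT alone 2.08 and 2.47. The D11 estimates thus differed by over 1.5-fold with the choice of control, and MMP2 passed the test with either.

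TIMP2 (ENSG00000035862, chr17:78852977-78925387, minus strand, 5 exons), the inhibitor that pairs with MMP2, also rose in both lines. In TPC1 it was at 7515, 10903 and 8099 normalised reads in NT, at 9138, 7547 and 10341 in NC and at 17340, 14905 and 18465 in siDicer. D11 NT libraries had 5632, 6962 and 7110, the NC libraries 6647, 6595 and 8817 and the siDicer libraries 12139, 14174 and 16529. Every siDicer library stood above all control libraries of its line, whereas NT and NC overlapped. The increase was 1.91-fold in TPC1 (log2 change 0.93, SE 0.13, adjusted p = 0.00240) and 2.05-fold in D11 (log2 change 1.04, SE 0.13, adjusted p = 0.000353). MMP2 and TIMP2 were the only genes of the 10 called in either line, where a call means an adjusted p under 0.05 and a change of at least 1.5-fold. They were 2 of the 5 genes that reached 10 normalised reads in at least 3 libraries and could be tested, with 0 called lower. Of all genes tested in TPC1, 3.22% were called higher, 4.16% were called lower and 7.62% were higher without overlap. The D11 shares were 5.26%, 6.75% and 11%. These shares moved with single libraries: the TPC1 calls, 594 higher and 769 lower, became 159 and 287 when siDicer replicate 1 was left out, 168 and 259 for replicate 3 and 844 and 1250 for replicate 2. The D11 calls, 969 and 1243, became 592 and 782 when siDicer replicate 3 was left out. The median log2 change of the 5 genes was 0.93 in TPC1 and 1.04 in D11, beside -0.04 over all genes in both lines.

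**Figure D2:**
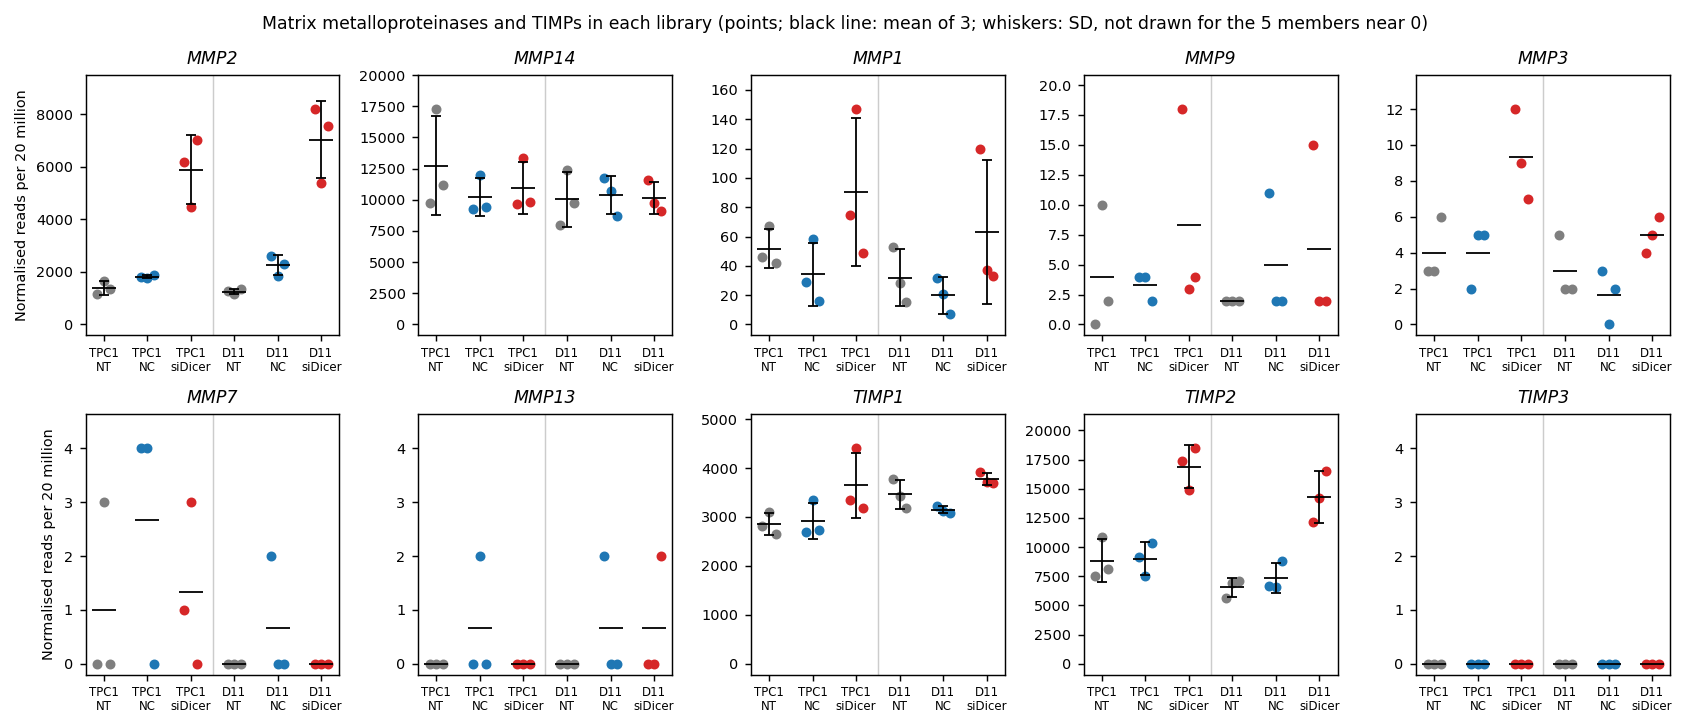
Normalised reads per 20 M of the 10 genes in each of the 18 libraries, by group, with NT in grey, NC in blue and siDicer in red; the black line is the mean of 3 libraries and whiskers are the SD. The siDicer points of MMP2 (4459 to 8193) and TIMP2 (12139 to 18465) lie above all control points of their line, those of MMP14 do not, and TIMP3 is at 0 throughout.

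Both genes share bases with neighbours, which limits how exactly their reads can be assigned. MMP2 shares exon bases with ENSG00000279030 (AC007336.3) on the same strand, and TIMP2 with CEP295NL on the same strand and with ENSG00000267601 (AC022966.2) on the other. Of 12507 genes with a mean of at least 100 normalised reads, those 3 neighbours had the highest correlation with MMP2 or TIMP2 over the 18 libraries (Pearson r 0.994 for AC007336.3 with MMP2, 0.995 for both neighbours of TIMP2). Next came genes that share no exon with them: ATP6V1B2, a subunit of the vacuolar proton pump, and CTNNB1, which encodes β-catenin, for MMP2 (r 0.974 and 0.970), and WNT5A, a secreted Wnt ligand, for TIMP2 (r 0.975). These are descriptions over libraries that share groups and depth, and whether strand was used in the counting is not given in the sources used here.

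Markers of other cell types were read beside these changes, since a bulk library cannot tell more cells of a type from more RNA per cell. Of the 8 fibroblast markers, COL1A2, COL3A1, DCN and PDGFRA were below 10 normalised reads in every library. The summed level of the list was 232 to 322 in the TPC1 controls and 409 to 824 in TPC1 siDicer, and 88 to 178 in the D11 controls and 186 to 285 in D11 siDicer, so that the sum moved with MMP2 and TIMP2. Of these markers, LUM and PDGFRB were called in TPC1 and PDGFRB in D11, each higher, whereas THY1 had log2 changes of -0.60 and -0.36 that did not pass the test. LUM, which encodes the matrix proteoglycan lumican, was at 273 to 517 in TPC1 siDicer and at 26 or less in every D11 library, whereas MMP2 was at 4459 or more in the siDicer libraries of both lines. Of the 6 epithelial markers, KRT19, EPCAM and CDH1 were below 10 in every library. The epithelial sum, mostly KRT8 and KRT18, was 8781 to 15776 in the TPC1 controls and 12682 to 14541 in TPC1 siDicer, and in D11 it was lower without overlap, 12283 to 14110 in siDicer against 14535 to 20467 in the controls. KRT7, a keratin, was called higher in TPC1 (log2 change 0.82, adjusted p = 0.0231) and no epithelial marker was called in D11. The endothelial sum was 4 to 21 in all libraries, the leukocyte sum was 771 to 1978 and consisted almost entirely of CD68, and PTPRC, CD3E and MS4A1 were at 4 or less. The part of the fibroblast and epithelial markers in the result was not tested.

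Because Dicer1 makes miRNAs, the 3′ untranslated regions of the 10 genes (canonical transcripts, GENCODE release 44) were searched for matches to the seeds of 8 miRNA families, a set picked after the values were seen. The miRNAs themselves were not measured in these libraries. The mature sequences below are from RefSeq, with the seed, bases 2 to 8, in capitals, and are those with a match in MMP2 or TIMP2, the genes that rose.
miR-29b-3p: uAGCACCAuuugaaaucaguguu
miR-17-5p: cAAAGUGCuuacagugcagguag
miR-200b-3p: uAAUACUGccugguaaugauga

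The matches in MMP2 and TIMP2 are shown with 9 bases on each side, as DNA in the sense of the messenger RNA. The 7 matching bases are in capitals, and their position on GRCh38 is given.
MMP2, miR-29b-3p, chr16:55505741-55505747: gggctgcccTGGTGCTgccacactt
MMP2, miR-17-5p, chr16:55505957-55505963: gctttgtatGCACTTTgtttttttc
MMP2, miR-17-5p, chr16:55506606-55506612: atgtgcaagGCACTTTtcacgtgtc
TIMP2, miR-17-5p, chr17:78853700-78853706: attagacttGCACTTTtttaaaaaa
TIMP2, miR-200b-3p, chr17:78852988-78852994: gacaataaaCAGTATTatcaaagag

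MMP2 therefore held 3 matches in 1249 bases and TIMP2 2 in 2690 bases. Such matches were common: of the 13343 untranslated regions of tested genes, 24.7% held the miR-17 match, 16.3% the miR-29 match and 19.0% the miR-200 match. MMP14 held none of the 8 in 1719 bases and TIMP1 none in 98 bases. MMP1 held 1 match to miR-221-3p, in 493 bases, which 9.33% of regions had, and MMP3 held 1 to miR-17-5p in 325 bases. TIMP3, with 3664 bases, held 2 to miR-21-5p and 1 each to miR-30a-5p, miR-146b-5p and miR-221-3p. No region of the 10 genes held the let-7 match, found in 11.04% of all. A match of 7 letters is a description of the sequence and was not tested as a site of binding.

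TIMP1 (ENSG00000102265, chrX:47582408-47586789, plus strand, within the span of SYN1), a secreted inhibitor, had a smaller difference. In TPC1 it was at 2820, 3105 and 2646 normalised reads in NT, at 2694, 3350 and 2724 in NC and at 3344, 4403 and 3193 in siDicer. D11 NT libraries had 3781, 3432 and 3189, the NC libraries 3227, 3125 and 3088 and the siDicer libraries 3919, 3717 and 3704. Control and siDicer ranges overlapped in both lines. In each line all 3 siDicer libraries stood above both control libraries of their own replicate number, an order whose share over all genes was not counted. The log2 change was 0.33 in TPC1 (95% interval 0.07 to 0.58, adjusted p = 0.0827) and 0.20 in D11 (0.01 to 0.38, adjusted p = 0.125), neither of which passed the test. With the replicate number as a block the adjusted p was 0.0116 in TPC1 and 0.0926 in D11. Against NC alone it was 0.196 in TPC1 and 0.0384 in D11, and against NT alone 0.160 and 0.377. The blocked TPC1 change and the D11 change against NC alone, 0.33 and 0.26, were too small for a call.

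MMP14 (ENSG00000157227, chr14:22836560-22849041, plus strand), the membrane protease that activates proMMP2, was among the most abundant of these transcripts in every group. In TPC1 it was at 9779, 17279 and 11187 normalised reads in NT, at 9266, 11956 and 9428 in NC and at 9688, 13348 and 9788 in siDicer. D11 NT libraries had 7975, 12372 and 9730, the NC libraries 11707, 10713 and 8703 and the siDicer libraries 11556, 9763 and 9134. All groups overlapped, and the highest value was that of TPC1 NT replicate 2. The log2 change was -0.05 in TPC1 (95% interval -0.46 to 0.36) and 0.003 in D11 (-0.29 to 0.30), with adjusted p of 0.890 and 0.989. Its sign changed when single libraries were left out, and without TPC1 NT replicate 2 the TPC1 change was 0.07.

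MMP1 (ENSG00000196611, chr11:102789401-102798160, minus strand), a collagenase that cuts fibrillar collagen, was low and variable. In TPC1 it was at 46, 67 and 42 normalised reads in NT, at 29, 58 and 16 in NC and at 75, 147 and 49 in siDicer. D11 NT libraries had 53, 28 and 15, the NC libraries 32, 21 and 7 and the siDicer libraries 120, 37 and 33. The groups overlapped in both lines. Each siDicer library was above both control libraries of the same replicate number, in 3 of 3 numbers in TPC1 and 3 of 3 in D11. The share of all genes with this order was not counted. The log2 change was 1.04 in TPC1 (SE 0.44, adjusted p = 0.137) and 1.23 in D11 (SE 0.54, adjusted p = 0.121), and neither was called. With the replicate number as a block both were called, with an SE of 0.28 and an adjusted p of 0.0284 in TPC1 and an SE of 0.30 and an adjusted p of 0.0134 in D11. The block also raised the calls over all 18475 genes tested in TPC1, from 594 higher and 769 lower to 781 and 1015. Over the 18413 genes tested in D11 they rose from 969 and 1243 to 1063 and 1380. Without D11 siDicer replicate 1 the D11 change was 0.65. Across the 18 libraries 723 reads of MMP1 were recovered, at most 124 in one, and WTAPP1, which has exons on the other strand at this place, was at 2 to 45 normalised reads.

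**Figure D3:**
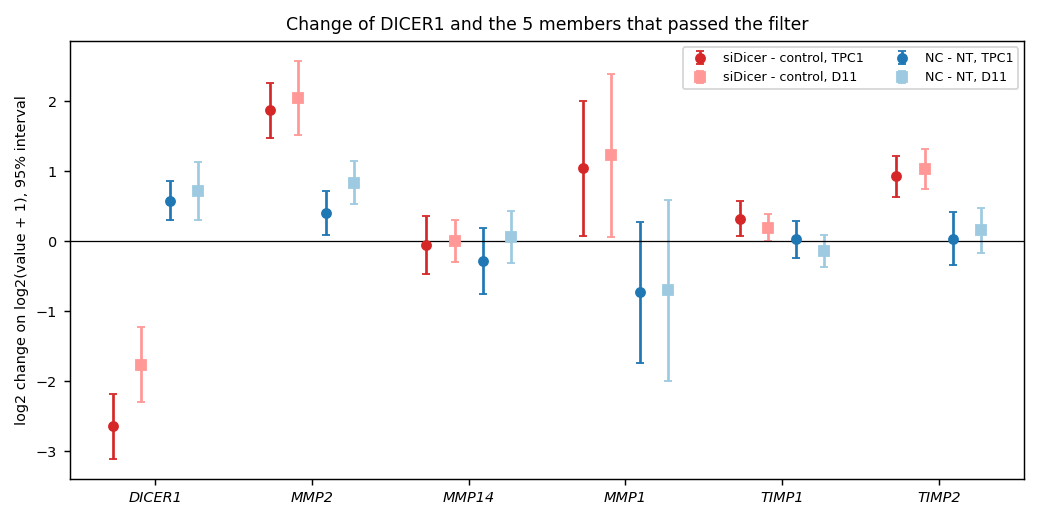
Log2 change (on log2 of the value plus 1) with its 95% interval for DICER1 and the 5 genes that passed the filter on low values, for siDicer against control and NC against NT in each line. MMP2 (1.87 and 2.05) and TIMP2 (0.93 and 1.04) lie above 0 in both siDicer comparisons, and the intervals of MMP14 include 0 in all comparisons.

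The other genes were at or near the limit of detection, where 3 reads correspond to 2.58 to 5.32 normalised reads, and were not tested in the comparisons of 2 groups. MMP3 (ENSG00000149968, chr11:102835801-102843609), which can activate other proMMPs, was at 3, 3 and 6 normalised reads in TPC1 NT, 2, 5 and 5 in TPC1 NC and 12, 9 and 7 in TPC1 siDicer. In TPC1 its siDicer values were thus above all control values, with 63 reads over all 18 libraries. Of the genes tested in TPC1, which MMP3 was not among, 7.62% were higher without overlap. The nearest values were 7 in siDicer replicate 3 and 6 in NT replicate 3, where 1 read corresponded to 0.938 and 1.74 normalised reads. D11 had 0 to 5 in the controls and 4, 5 and 6 in siDicer, and the groups overlapped.

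MMP9 (ENSG00000100985, chr20:46008908-46016561), the second gelatinase, was at 10 or less in all TPC1 controls and at 18, 3 and 4 in TPC1 siDicer. In D11 it was at 2 in 5 control libraries, at 11 in NC replicate 1 and at 15, 2 and 2 in siDicer. No direction can be read from 67 reads spread this way. MMP7 (ENSG00000137673, chr11:102520508-102530750), an epithelial metalloproteinase, was above 0 in 6 libraries and never above 4, with 11 reads in all. MMP13 (ENSG00000137745, chr11:102942995-102955732), another collagenase of the cluster on chromosome 11, had 1 read in each of 3 libraries, TPC1 NC replicate 2, D11 NC replicate 1 and D11 siDicer replicate 3.

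TIMP3 (ENSG00000100234, chr22:32801705-32863041, plus strand, within the span of SYN3) is the TIMP that stays bound to the extracellular matrix. It was listed at 0 in all 18 libraries. Over the 288 M reads of the series, 0 reads allow a level of up to 0.208 normalised reads, for counting error only. Its change after Dicer1 siRNA could not be measured at this depth.

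The balance of MMP2 to its partners was followed as a ratio within each library, which does not depend on library scaling. MMP2 over TIMP2 was 0.157 ± 0.00624 (SD, n = 3) in TPC1 NT, 0.205 ± 0.0275 in NC and 0.345 ± 0.0416 in siDicer. In D11 it was 0.192 ± 0.0288, 0.311 ± 0.0689 and 0.503 ± 0.153. In TPC1 the siDicer libraries (0.299 to 0.380) stood above all controls, whereas in D11 the lowest siDicer library (0.379) was below the highest NC library (0.390). MMP2 over MMP14 was 0.111 ± 0.0126 in TPC1 NT, 0.181 ± 0.0281 in NC and 0.563 ± 0.202 in siDicer. In D11 it was 0.129 ± 0.0327, 0.220 ± 0.0467 and 0.695 ± 0.138, and the siDicer libraries of both lines stood above all their controls. The ratios are not corrected for gene length and do not say which transcript is the more abundant.

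**Figure D4:**
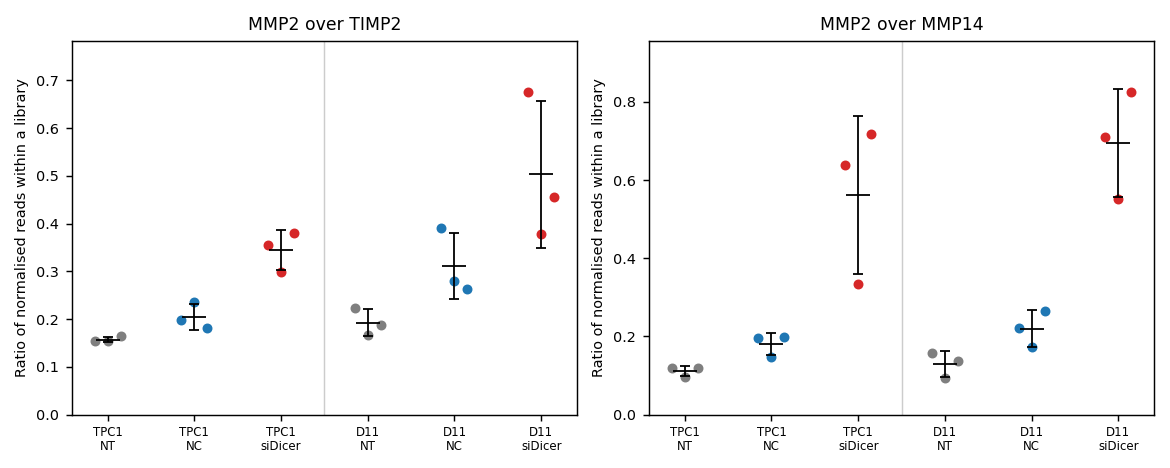
Ratio of MMP2 to TIMP2 (left) and of MMP2 to MMP14 (right) in normalised reads within each library, by group, with the mean and SD of 3 libraries in black. The ratio to TIMP2 runs from 0.157 in TPC1 NT to 0.503 in D11 siDicer, with NC and siDicer overlapping in D11, and the ratio to MMP14 from 0.111 to 0.695.

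NC libraries were set against NT libraries to read the effect of transfection by itself. MMP2 was higher in NC than in NT in both lines, with no overlap between the groups. In D11 the increase was 1.79-fold (log2 change 0.84, SE 0.14, adjusted p = 0.0476), the single call among the 5 genes tested, where 0.15% of all genes were called higher and 10.8% were higher without overlap. The call was lost without D11 NT replicate 2 or 3 or any one NC replicate (adjusted p 0.0662 to 0.289) and was kept with the replicate block (adjusted p = 0.00663). In TPC1 the log2 change was 0.41 (SE 0.14, adjusted p = 0.332), with 0 of 5 genes called, 0.0333% of all genes called higher and 8.2% higher without overlap. TIMP2 had log2 changes of 0.03 in TPC1 and 0.16 in D11 and MMP1 of -0.73 and -0.70, none past the test. NC libraries also had more DICER1 than NT libraries, 1901 to 2492 against 1397 to 1582 in TPC1 and 1407 to 1536 against 655 to 1157 in D11, a difference that was not called in either line (log2 change 0.58 and 0.71, adjusted p = 0.133 and 0.153) but was called in D11 with the replicate block (adjusted p = 0.0460). The summed fibroblast markers were 88 to 143 in D11 NT and 166 to 178 in D11 NC, and 232 to 245 and 245 to 322 in TPC1, and their part in the MMP2 difference was not tested.

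The D11 and TPC1 control libraries were compared to read the effect of the heterozygous clone. DICER1 was lower in D11 (log2 change -0.68, SE 0.12, adjusted p = 0.00561), a call that was lost against NT alone (adjusted p = 0.406) or NC alone (adjusted p = 0.107) and without D11 NT replicate 1, where the change of -0.58 fell short of 1.5-fold. The DICER1 call was also lost without the filter on low values (adjusted p = 0.117). None of the 5 genes was called, where 1.02% of all genes were. MMP2 differed by 0.08 on the log2 scale (95% interval -0.16 to 0.32) and changed sign with NT alone. TIMP2 had the lowest unadjusted p of the 5, with a log2 change of -0.36 (95% interval -0.60 to -0.11, adjusted p = 0.247), and TIMP1 had one of 0.20 (0.03 to 0.36, adjusted p = 0.382). MMP1 had a log2 change of -0.80 (-1.63 to 0.02) and MMP14 of -0.15 (-0.47 to 0.16).

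The response to Dicer1 siRNA was then compared between the lines by an interaction term, with 6 of the 10 genes tested. No gene of the 10 was called, nor any of 19181 genes (0%), of which 171 had an unadjusted p under 0.05. With voom on recovered reads 191 had, and without the filter on low values 10 genes, none of them among the 10, were called. The log2 difference of the siDicer effect, D11 minus TPC1, was 0.18 for MMP2 (95% interval -0.28 to 0.64), 0.11 for TIMP2 (-0.31 to 0.53), -0.13 for TIMP1 (-0.43 to 0.17), 0.05 for MMP14 (-0.46 to 0.57) and 0.19 for MMP1 (-1.37 to 1.75). These intervals leave room for a difference between the lines of up to 1.56-fold for MMP2 and 1.44-fold for TIMP2. Ordered by group means, MMP2 ran from D11 siDicer and TPC1 siDicer, which overlapped, to D11 NC and TPC1 NC, which overlapped, and then to TPC1 NT and D11 NT, which overlapped, with a gap between each pair and the next. TIMP2 had a single gap, between the 2 siDicer groups and the 4 control groups, whose neighbours all overlapped.

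Of the 17 other family genes, 7 could be tested in each line. MMP19, a secreted metalloproteinase, was the only one called, higher in both lines, with a mean of 40.8 normalised reads in the TPC1 controls and 74.0 in siDicer, and 39.7 and 79.3 in D11. Its log2 change was 0.86 in TPC1 and 1.00 in D11 (adjusted p = 0.0351 and 0.00330). The median of the 7 was 0.06 in TPC1 and -0.12 in D11, beside -0.04 over all genes in both lines, of which 3.22% and 5.26% were called higher. MMP8, MMP10, MMP12, MMP20 and MMP27, which lie on chromosome 11 near MMP1, MMP3, MMP7 and MMP13, were at 0 to 2 in every library.

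Among 20 genes that activate, restrain or clear metalloproteinases, 16 were tested. None was called lower, and 3 were called higher in TPC1 and 5 in D11, with a median log2 change of 0.30 in both. Over all genes tested, 3.22% were called higher and 4.16% lower in TPC1 and 5.26% and 6.75% in D11, with a median of -0.04 in both. ST14, which encodes the membrane serine protease matriptase, changed by 1.29 in TPC1 and 1.46 in D11 from means of 19.7 and 16.5 normalised reads. RECK, a membrane-anchored inhibitor of metalloproteinases, changed by 0.80 and 0.91, with siDicer means of 395 and 394 against 220 and 211 in the controls. The TPC1 ranges of RECK overlapped, 191 to 261 in the controls and 260 to 483 in siDicer. SPOCK1, the proteoglycan testican, changed by 0.74 and 0.85. LRP1, an endocytic receptor, was also called in D11 (log2 change 0.84, against 0.66 in TPC1, which was not called) and is named because the count is small. In NC against NT the medians of the 16 genes were 0.19 in TPC1 and 0.16 in D11, with 0 called. Over all genes those medians were 0.0014 and 0.017.

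Of 29 ADAM and ADAMTS genes, relatives that shed membrane proteins or cut matrix proteoglycans, 24 were tested. Calls went up for 2 and down for 2 in TPC1, and up for 5 and down for 1 in D11, with medians of 0.36 and 0.45. The shares over all genes were 3.22% up and 4.16% down in TPC1 and 5.26% and 6.75% in D11, with a median of -0.04 in both. ADAMTS12 rose by 1.20 in TPC1 and 1.34 in D11, and ADAMTS7 by 0.87 and 0.81. Over the other settings, either control alone among them, the ADAMTS12 change was 0.88 to 1.51 in TPC1 and 1.00 to 1.68 in D11. ADAM9, a membrane sheddase, fell by 0.87 and 0.78 on the log2 scale, from means of 10909 and 10531 normalised reads to 5971 and 6113. Calls in a single line, named because they are few, were the sheddase ADAM17 in TPC1 (log2 change -0.62, against -0.41 in D11) and ADAMTS16, ADAMTS6 and ADAM22 in D11 (0.82, 0.68 and 0.60, against 0.69, 0.45 and 0.40 in TPC1). All 18 genes of a chosen list of transcription factors were tested, mostly of the AP-1 and ETS families, which are known to act on metalloproteinase promoters. In TPC1, 1 was called higher and 0 lower, and in D11 3 higher and 3 lower, with medians of 0.22 and 0.05, beside the same shares and median over all genes. ETS2 was the one called in both lines (log2 change 0.75 and 0.60). The other D11 calls, again named for their small number, were JUND and ETS1 with log2 changes of 0.68 and 0.63 (0.50 and 0.61 in TPC1) and ETV4, BATF3 and ETV1 with -0.97, -0.93 and -0.88 (-0.87, -0.14 and -1.03 in TPC1). The TPC1 values were not called, and no difference between the lines in the siDicer effect was called for any of these genes. In NC against NT the medians of the 24 ADAM and ADAMTS genes were 0.18 in TPC1 and 0.34 in D11, beside 0.0014 and 0.017 over all genes. Of them 0 were called in TPC1 and 2 were called higher in D11, where 0.15% of all genes were. ADAMTS12, not called there, was at 1171 to 1448 in NC against 811 to 918 in NT in TPC1. In D11 it was at 1223 to 1255 against 611 to 1034. Of all genes, 8.2% and 10.8% were higher without overlap in NC. In the control libraries, ADAMTS7 was called higher in D11 than in TPC1. That call was lost with either control alone and in 9 of 12 fits with a library left out (log2 change 0.61 to 0.75). It was also lost without the filter on low values (adjusted p = 0.101).

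The TPC1 calls of MMP19, ST14, RECK, SPOCK1, ADAMTS7 and ETS2 were lost without siDicer replicate 1 (log2 change 0.60 or more, adjusted p 0.0671 to 0.182) and without siDicer replicate 3 (0.60 or more, adjusted p 0.0738 to 0.120), the libraries without which the calls over all genes also fell. MMP19 and ADAMTS7 also lost the TPC1 call without NT replicate 1, NC replicate 2 or NC replicate 3, MMP19 without siDicer replicate 2 and ADAMTS7 without NT replicate 3, with adjusted p of 0.0521 to 0.0695. In D11, SPOCK1 lost its call without siDicer replicate 3 (adjusted p = 0.0527), and ETS2 fell short of 1.5-fold without NC replicate 2 or 3 or siDicer replicate 3 (log2 change 0.54 to 0.58). The calls of MMP2, TIMP2, ADAMTS12 and ADAM9 in the siDicer comparisons held without any one library.

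**Figure D5:**
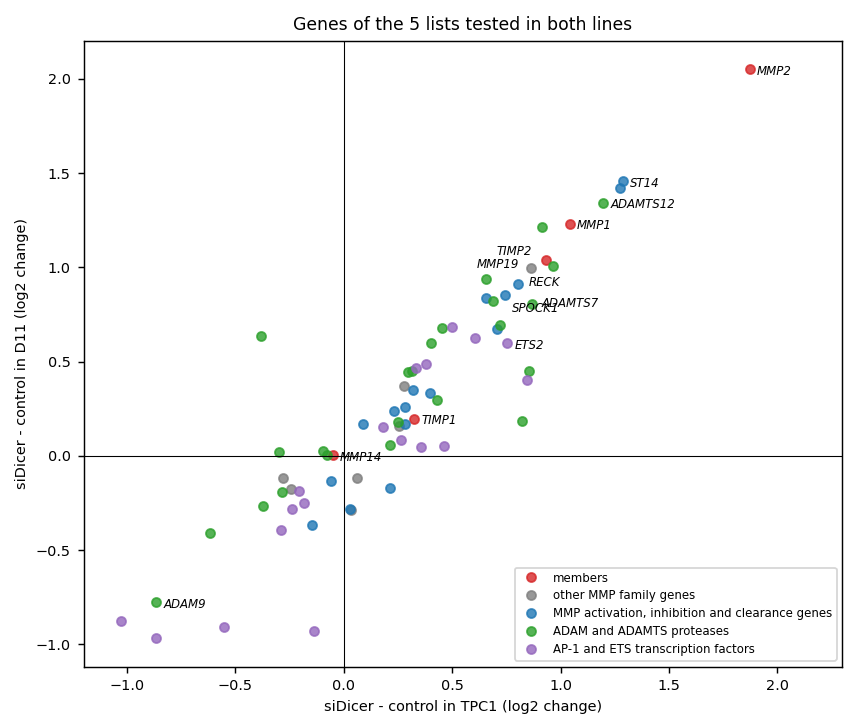
Log2 change after Dicer1 siRNA in TPC1 (horizontal) and in D11 (vertical) for every gene of the 5 lists that was tested in both lines, coloured by list, with the genes followed here and those called in both lines named. MMP2 (1.87, 2.05) lies farthest from 0, ADAM9 (-0.87, -0.78) is the named gene that fell, and MMP14 lies at -0.05 and 0.003.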

How the data were processed

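Messenger RNA was measured in 18 libraries (TruSeq stranded kit). Per the methods, the authors aligned reads to GRCh38 with STAR 2.5.3a and summarised them by Ensembl release 90 gene with HTSeq 0.9.1. The deposited values are a normalised score: counts scaled to 20 M aligned reads and rounded up. The strand setting is not given in the sources used here. The step between values gave the reads behind them (99.9% to 100% whole in 16 libraries).

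Values were taken as log2(value + 1), genes reaching 10 in 3 or more libraries of a comparison were kept, and limma 3.58.1 (R 4.3.3, eBayes with trend) was fitted over all of them, with Benjamini-Hochberg adjustment. A fold change on this scale understates that of low genes. edgeR, which the study used, needs counts and was not run. Calls need a change of 1.5-fold or more with adjusted p below 0.05. siDicer was compared with NT and NC as 1 control group, after the study, then NC with NT, D11 with TPC1 (transfection as a term) and the interaction.

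Genes, lists and named genes were chosen with earlier results of these data known. Named were DICER1, the 10 members, up to 4 genes per other list called in the same direction in both lines, and the 3 genes most correlated with each member called in both. Some genes of the lists are not reported here. Over the fitted genes, deviations of same-numbered libraries correlated above 0.1 in 9 of 9 pairs in D11 (r 0.108 to 0.504) and 8 of 9 in TPC1 (0.0994 to 0.542), and over genes with a mean of at least 100 in 8 of 9 (0.0640 to 0.718) and 9 of 9 (0.114 to 0.678). Different-numbered libraries correlated above 0.1 in 3 of 18 pairs of each line over the fitted genes (r -0.419 to 0.206 in D11, -0.526 to 0.195 in TPC1). Over genes with a mean of at least 100 they did so in 4 of 18 (-0.573 to 0.438 and -0.730 to 0.358). Libraries of the same number were thus mostly more alike in both lines. The main tests do not use this, and blocked values are given where they change the call of a named gene. All replicates differed by more than counting noise. Other settings tried were scaling by TMM or RLE, a fit of unfiltered genes, pseudocounts of 0.1 and 10, voom on recovered reads, a replicate block, either control alone, and each library left out. Genes were placed with GENCODE release 44.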

Additional observations from a re-analysis of the deposited data

Results flagged for a closer look

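In 22 control groups of 6 libraries, 1 for each gene and line, the highest or lowest library was set against the others by the size of its gap. For continuous values chance alone marks about 1 in 20 groups. This rate does not hold for genes at a few reads, where 1 library off an otherwise constant group spans the whole range. MMP14 in the TPC1 control group had a value of 17279 normalised reads in NT replicate 2, with a gap of 0.664 of the range. The other 4 were single libraries at a few reads: MMP9 at 11 in D11 NC replicate 1, where the other 5 D11 controls were at 2, MMP7 at 2 in D11 NC replicate 1, MMP13 at 2 in TPC1 NC replicate 2 and MMP13 at 2 in D11 NC replicate 1, where the others were at 0. D11 NC replicate 1 held 3 of the 5, all of them at such low counts.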

How the results depend on the processing

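MMP2 and TIMP2 kept direction and call in siDicer against control in all 18 alternatives in each line, leave-one-out included (MMP2 log2 change 1.67 to 2.08 in TPC1 and 1.63 to 2.47 in D11, TIMP2 0.865 to 1.02 and 0.927 to 1.15). In NC against NT in D11, the count of called genes among the 10 fell from 1 to 0 with voom or with unfiltered genes, and was 0 to 1 with a library left out. The replicate block added MMP1 to the calls in TPC1 (log2 change 1.04, adjusted p = 0.0284) and in D11 (1.23, 0.0134), and changed no other siDicer call of the 10 genes. It also called ADAMTS12 in NC against NT in both lines (log2 change 0.634 in TPC1 and 0.678 in D11, adjusted p = 0.00713 and 0.0369). The block raised the calls over all genes in NC against NT from 6 higher and 14 lower to 300 and 265 in TPC1 and from 27 and 36 to 195 and 120 in D11. In siDicer against control the blocked calls were 781 and 1015 in TPC1 and 1063 and 1380 in D11. Without the filter the siDicer calls over all genes were 207 and 311 in TPC1, against 594 and 769, and 475 and 672 in D11, against 969 and 1243.

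Signs turned for small differences that were not called, and the cause was not tested. With NC alone as the control, MMP14 had a log2 change of 0.0924 in TPC1 and -0.0277 in D11 after siDicer and 0.0212 in D11 against TPC1, and the interaction was -0.0366 for MMP2, -0.12 for MMP14 and -0.0139 for ST14. With NT alone, D11 against TPC1 was -0.136 for MMP2 and 0.0245 for MMP19, and the interaction of ADAMTS7 was 0.0114.
With one library left out, log2 changes spanned 0 for the following. In siDicer against control in TPC1 MMP14 -0.202 to 0.0748. In siDicer against control in D11 MMP14 -0.0939 to 0.0758. In NC against NT in TPC1 TIMP1 -0.0736 to 0.0901, TIMP2 -0.0728 to 0.196, MMP19 -0.0276 to 0.513, ST14 -0.336 to 0.353, ADAMTS7 -0.0715 to 0.236, ETS2 -0.398 to 0.0496. In NC against NT in D11 MMP14 -0.0917 to 0.225, MMP19 -0.0503 to 0.313. In D11 against TPC1 MMP19 -0.143 to 0.0974, SPOCK1 -0.139 to 0.0516. In the interaction MMP1 -0.395 to 0.61, MMP2 -0.00801 to 0.362, MMP9 -1.31 to 0.19, MMP14 -0.0673 to 0.205, TIMP1 -0.218 to 0.0134, TIMP2 -0.00432 to 0.218, MMP19 -0.00209 to 0.283, ST14 -0.0219 to 0.399, RECK -0.169 to 0.277, SPOCK1 -0.00925 to 0.255, ADAMTS7 -0.255 to 0.211.
The siDicer calls of MMP19, ST14, RECK, SPOCK1, ADAMTS12, ADAMTS7 and ETS2 in TPC1 and of SPOCK1 in D11 were lost without the filter, where 58302 genes entered the adjustment. In TPC1, the calls of MMP19 and ADAMTS7 were lost with either control alone, those of ST14 and ETS2 with NT alone and those of RECK and SPOCK1 with NC alone, and in D11 that of ETS2 with NT alone. Depth limits MMP3, MMP7, MMP9, MMP13 and TIMP3, for which 3 reads correspond to 2.58 to 5.32 normalised reads in a library.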
